A study of Homo sapiens with 6 samples.

Results

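The genes described here are 10 genes of glucose uptake and glycolysis, SLC2A1, HK1, HK2, PFKP, PFKFB3, ALDOA, PGK1, ENO1, PKM and LDHA, chosen by gene symbol. All 10 were among the 16390 genes listed for each library, and all 10 were among the 13055 genes left by a filter on low counts. RNA was sequenced from SW780, an established human bladder cancer cell line used as a luminal type, in 3 libraries of Control cells and in 3 of cells that had been given RC48 (25 µg/ml). RC48 (disitamab vedotin) is an antibody-drug conjugate in which an antibody to the receptor ERBB2 carries the microtubule inhibitor monomethyl auristatin E. The comparison asks how the mRNA of these genes differed between exposed and Control cells of the same line. The exposure time of this experiment and the agent given to Control cells are not given in the sources used here. Nothing in the labels says that the libraries of a group came from separate cultures, so p-values measure only the spread between these libraries, which may be technical.

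Glycolysis splits glucose into pyruvate and yields ATP without oxygen. Glucose enters the cell through transporters of the SLC2A family, hexokinases trap it as glucose 6-phosphate, phosphofructokinase commits it to the pathway, and pyruvate kinase and lactate dehydrogenase form pyruvate and lactate at its end. Many tumors, those of the bladder included, convert much of their glucose to lactate even when oxygen is present, and the hypoxia-inducible factor HIF1 is a known activator of most of these genes. The measurements are mRNA levels per gene. They hold no information on enzyme activity or on splice forms, such as the M1 and M2 forms that both come from PKM.

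The estimated counts of a library summed to between 16453233 and 17988030, and the counts of the 10 genes ran from 658 for PFKFB3 to 112637 for PKM. The spread between libraries was unequal. Chi-square divided by its degrees of freedom, a value near 1 where sampling noise alone separates 2 libraries, was 1.44 to 11.6 for the pairs of Control libraries and 22.3 to 135.6 for the pairs of RC48 libraries, over 11977 genes. The difference of RC48 replicate 1 from the Control mean followed the GC content of transcripts, with a Spearman's rho of 0.74 across 13000 genes, and so did that of RC48 replicate 3 (0.58), but not that of RC48 replicate 2 (-0.022). In RC48 replicate 1 the median log2 ratio went from -0.97 to 0.64 between the lowest and the highest of 10 equal groups of genes by GC content. Transcripts of 8 of the 10 glycolysis genes lay above the median GC content of 48.3%, between 51.2% for HK2 and 57.5% for PFKP, whereas PGK1 (43.3%) and LDHA (44.0%) lay below it. The 10 genes were therefore also fitted after a correction for GC content. For each library it removed the GC trend of log2 CPM taken relative to the mean of the 6 libraries. Luminal markers summed to 761 to 777 CPM in Control and 697 to 868 CPM in RC48 libraries, led by GATA3, although the luminal marker KRT20 was low and fell, from 1.94 to 2.03 CPM to 0.486 to 1.00 CPM (log2 fold change -1.55, edgeR adjusted p = 0.0489). Leukocyte markers summed to 19.2 to 20.3 CPM and 24.2 to 44.0 CPM, and their part in the results was not tested. Most of this sum was CD68, at means of 16.8 CPM in Control and 24.2 CPM in RC48. The general leukocyte marker PTPRC had a count of 0 in every Control library and at most 0.0607 CPM in RC48 libraries, while ITGAM rose from 5 counts in all to 188 (edgeR adjusted p = 0.0074). Of the 7 tested leukocyte markers, 4 were higher in RC48 without overlap (CD68, CD3E, CD14 and ITGAM), beside 17.4% of all genes. CD3E had 16 counts in Control and 51 in RC48, and CD14 had 18 and 49. KRT20 lost its call without any 1 of the Control libraries, and ITGAM without Control replicate 3. Of the luminal and leukocyte markers, 1 of 6 and 1 of 7 tested genes passed, with 2 and 3 at an unadjusted p under 0.05. Of the basal, epithelial, and fibroblast and endothelial markers, 0 of 4, 0 of 5 and 0 of 6 tested genes passed, with 1, 1 and 4 at an unadjusted p under 0.05. Over all genes, 2.21% passed and 19.1% had an unadjusted p under 0.05. Fibroblast and endothelial markers summed to 472 to 505 CPM in Control and 469 to 580 CPM in RC48 libraries. Most of this sum was COL3A1 (means 280 CPM in Control and 412 CPM in RC48) and LUM (168 and 92.2 CPM). DCN, PDGFRB and KDR were near 0, with 4, 4 and 0 counts summed over the Control libraries. Over the RC48 libraries they had 2, 3 and 1. With the GC correction 7.57% of all genes passed, 2.73% lower in RC48. With it 3 of the 6 fibroblast and endothelial markers passed, all lower in RC48 (LUM, PECAM1 and VWF, edgeR adjusted p = 0.0318, 0.0219 and 0.0226), as did 0 of the basal and epithelial markers. The other 3 of the 6 had log2 fold changes above 0 with the correction and did not pass. These were COL1A1 (0.43, edgeR adjusted p = 0.0687), COL3A1 (0.44, edgeR adjusted p = 0.104) and CDH5 (0.012, edgeR adjusted p = 0.982). With the correction, the number of these 6 that passed was 0 without Control replicate 1, Control replicate 3 or RC48 replicate 3, and 1 without Control replicate 2. In bulk RNA of this kind, fewer cells of a type and less RNA per cell cannot be told apart.

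HIF1 binds DNA at hypoxia response elements, whose core is ACGTG or GCGTG. Only the form ACGTG was looked for, so GCGTG was not counted. The search covered both strands of the 250 bases upstream of each gene's first listed start in RefSeq. Overlapping matches on the 2 strands (CACGTG) were joined. ACGTG stood in 4 of 10 glycolysis genes (HK2, LDHA, ALDOA and PGK1), or 40%, against 23.0% of 10695 tested genes with a listed start and 18.7% of all 27305 genes. Where every listed start was searched, 6 of 10 had it, PFKP and PFKFB3 as well. By window this was 9 of 24 (37.5%), against 18.5% of all 35116 windows. HK2 and LDHA are shown as examples picked by their values. Their log2 fold changes had opposite signs in the main fit and under all 23 alternative settings. Neither passed the test in the main fit (log2 fold change -0.24 and 0.11, edgeR adjusted p = 0.367 and 0.515). ALDOA and PGK1, which also had ACGTG at the first start, were at 0.29 and 0.10 in that fit. No relation between these letters and the changes was tested. The lower-case sequences below run 5′ to 3′ on the plus strand of GRCh38.p14 and end at the base before the start. Matches to ACGTG on either strand are in capitals. The window of HK2 is chr2:74833877-74834126 and that of LDHA is chr11:18394313-18394562.
HK2: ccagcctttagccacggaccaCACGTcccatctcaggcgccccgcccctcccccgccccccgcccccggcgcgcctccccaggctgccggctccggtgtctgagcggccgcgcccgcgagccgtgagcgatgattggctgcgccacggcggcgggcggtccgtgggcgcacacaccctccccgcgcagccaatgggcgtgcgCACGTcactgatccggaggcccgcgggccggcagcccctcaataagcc
LDHA: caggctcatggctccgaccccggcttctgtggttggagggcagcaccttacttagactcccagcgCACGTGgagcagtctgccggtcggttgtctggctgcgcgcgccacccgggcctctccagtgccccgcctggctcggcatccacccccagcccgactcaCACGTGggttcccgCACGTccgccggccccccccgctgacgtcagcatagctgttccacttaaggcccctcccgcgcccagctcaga
The window of HK2 held 2 such stretches, 229 and 48 bases upstream of the start, and that of LDHA held 3. A match describes the letters alone and says nothing of binding in these cells.

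No glycolysis gene passed the test in either direction. By edgeR's quasi-likelihood test, with p-values adjusted over all genes by the Benjamini-Hochberg method, 0 of 10 glycolysis genes had an adjusted p under 0.05, where 288 of 13055 genes (2.21%) did, 258 (1.98%) higher and 30 (0.23%) lower in RC48. At an unadjusted p under 0.05 there was 1 of 10, PFKP, beside 19.1% of all genes. The log2 fold change was above 0 for 9 of the 10, with a median of 0.15, beside 6710 of 13055 genes and a median of 0.016. After the correction for GC content, 0 of 10 again passed, where 984 of 13000 genes (7.57%) did, 629 (4.84%) higher and 355 (2.73%) lower, and the number above 0 was 6 with a median of 0.086, beside 6720 of 13000 genes and a median of 0.011. At an unadjusted p under 0.05 there were then 3 of 10, HK2, PFKP and PFKFB3, beside 25.4% of all genes. With DESeq2, 0 of 10 passed and 1 had an unadjusted p under 0.05. The library with the strongest GC trend was also the one in which the genes stood highest. In RC48 replicate 1 all 10 were above the Control mean, with log2 ratios of 0.041 to 0.73, against 4 of 10 in RC48 replicate 2 and 8 of 10 in RC48 replicate 3.

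**Figure D1:**
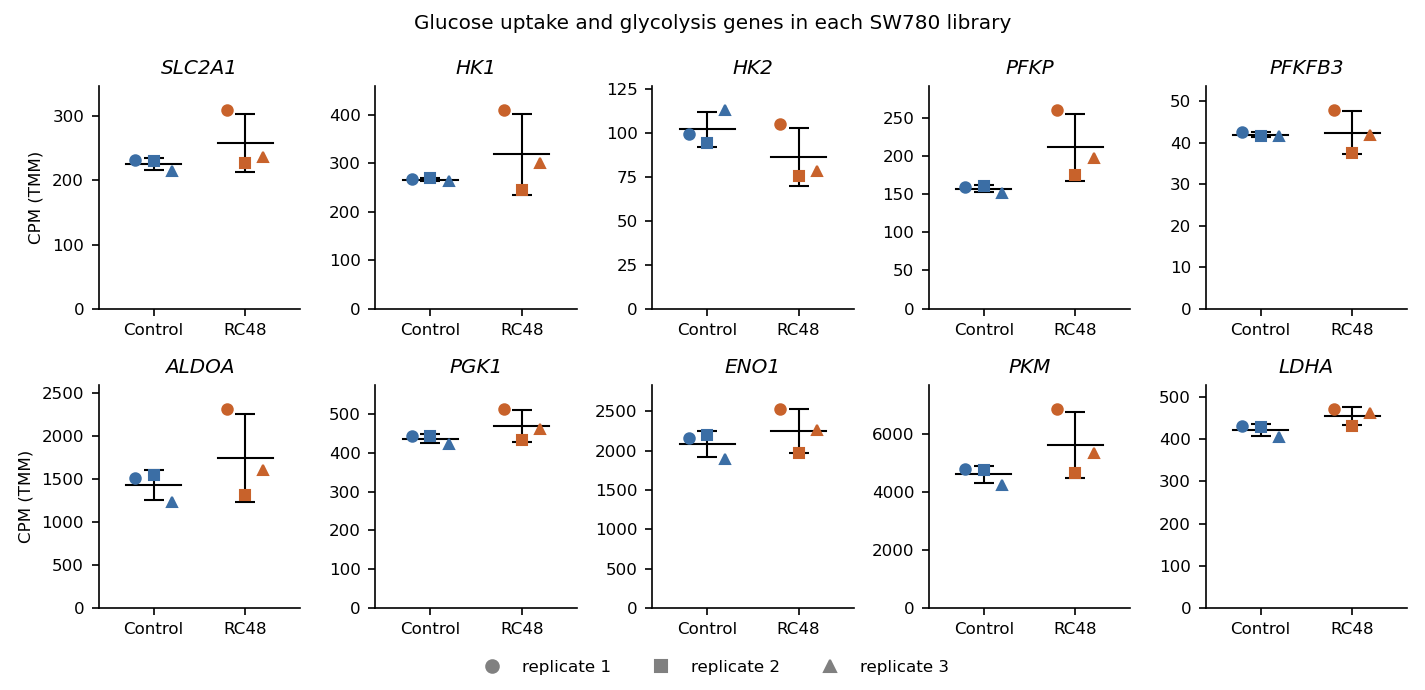
Each panel shows TMM-normalized CPM of 1 gene in the 3 Control and 3 RC48 libraries as points on a linear axis, with the group mean as a horizontal line and the SD as an error bar. RC48 replicate 1 is the highest library for 9 of the genes, and for HK2 it lies between the Control libraries.

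SLC2A1 (GLUT1, NCBI gene 6513, chr1:42925353-42958868 in GRCh38) is the main glucose transporter of most proliferating cells. Its level was 232.4, 230.3 and 214.2 CPM (TMM-normalized counts scaled to library size) in Control and 310.1, 227.4 and 237.1 CPM in RC48 replicates 1, 2 and 3. The groups overlapped, and only RC48 replicate 1 stood well above the Control libraries. Means were 225.7 ± 9.97 CPM and 258.2 ± 45.2 CPM (SD, n = 3 each). Its log2 fold change was 0.19 (SE 0.14, 95% interval -0.14 to 0.53, edgeR adjusted p = 0.408), and the exact permutation test, which cannot go below 0.1 with 3 against 3, gave p = 0.3. After the correction for GC content the difference was -0.0061 (edgeR adjusted p = 0.969).

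Phosphorylation of glucose is carried out by HK1, the widely expressed hexokinase, and HK2, the inducible form found in many tumors. HK1 (NCBI gene 3098, chr10:69270000-69401882) stood at 266.8, 270.0 and 262.9 CPM in Control and at 410.5, 245.7 and 300.6 CPM in RC48. Its RC48 libraries lay on both sides of the narrow Control range, and the log2 fold change was 0.26 (SE 0.18, 95% interval -0.17 to 0.69, edgeR adjusted p = 0.393), and 0.089 after the correction for GC content (edgeR adjusted p = 0.638). HK2 (NCBI gene 3099, chr2:74834127-74893359) stood at 99.3, 94.0 and 113.1 CPM in Control and at 105.1, 75.3 and 78.2 CPM in RC48. RC48 replicates 2 and 3 were below every Control library and RC48 replicate 1 was within their range. HK2 was the one glycolysis gene with a log2 fold change below 0, at -0.24 (SE 0.16, 95% interval -0.62 to 0.13, edgeR adjusted p = 0.367). With the correction for GC content HK2 did not overlap, at 97.0 to 116.9 CPM in Control and 76.2 to 93.7 CPM in RC48, and its log2 fold change was -0.36 (95% interval -0.61 to -0.10, edgeR adjusted p = 0.0949). Without RC48 replicate 1, HK2 passed the test (log2 fold change -0.42, edgeR adjusted p = 0.0427), as did 897 genes in all.

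At the committed step, PFKP is the platelet-type phosphofructokinase, and PFKFB3 makes fructose 2,6-bisphosphate, the activator of phosphofructokinase. PFKP (NCBI gene 5214, chr10:3067548-3136805) was at 159.6, 159.9 and 151.7 CPM in Control and at 260.2, 175.6 and 197.7 CPM in RC48. All 3 RC48 libraries were above all 3 Control libraries. PFKP was the one gene of the 10 whose interval lay above 0, with a log2 fold change of 0.43 (SE 0.16, 95% interval 0.058 to 0.80), but its edgeR adjusted p was 0.226, and the exact permutation test gave its smallest value, p = 0.1. The correction for GC content left the groups apart, at 168.7 to 171.3 CPM and 187.9 to 195.6 CPM, with a log2 fold change of 0.17 (edgeR adjusted p = 0.186). Without RC48 replicate 2, PFKP passed the test (log2 fold change 0.54, edgeR adjusted p = 0.0329), as did 3726 genes in all. PFKFB3 (NCBI gene 5209, chr10:6144921-6326637), the lowest of the genes, was at 42.6, 41.7 and 41.5 CPM in Control and at 47.9, 37.6 and 41.9 CPM in RC48. Its RC48 libraries surrounded the Control libraries, and the log2 fold change was 0.017 (SE 0.13, 95% interval -0.29 to 0.33, edgeR adjusted p = 0.939). With the correction for GC content PFKFB3 was lower in all 3 RC48 libraries, with a log2 fold change of -0.19 (95% interval -0.37 to -0.021, edgeR adjusted p = 0.157).

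ALDOA, PGK1 and ENO1 act in the middle of the pathway, where ALDOA splits the 6-carbon sugar, PGK1 forms ATP and ENO1 makes phosphoenolpyruvate. ALDOA (NCBI gene 226, chr16:30064279-30070420) was at 1507, 1545 and 1228 CPM in Control and at 2310, 1310 and 1607 CPM in RC48. Among the 10 it had the widest spread in RC48 relative to its mean, 1742 ± 514 CPM (SD, n = 3), and a log2 fold change of 0.29 (SE 0.21, 95% interval -0.21 to 0.78, edgeR adjusted p = 0.406). PGK1 (NCBI gene 5230, chrX:78104248-78129295) was at 444.0, 444.3 and 422.4 CPM in Control and at 512.9, 432.0 and 462.1 CPM in RC48, with a log2 fold change of 0.10 (SE 0.11, 95% interval -0.16 to 0.36, edgeR adjusted p = 0.561). ENO1 (NCBI gene 2023, chr1:8861000-8878686) was at 2161, 2198 and 1895 CPM in Control and at 2527, 1968 and 2255 CPM in RC48, with a log2 fold change of 0.11 (SE 0.13, 95% interval -0.20 to 0.42, edgeR adjusted p = 0.595). The groups of all 3 genes overlapped. The correction for GC content moved them apart from each other, to 0.083 for ALDOA, 0.29 for PGK1 and -0.040 for ENO1, and none passed (edgeR adjusted p = 0.711, 0.257 and 0.784). Estimated counts of ALDOA were not whole in any of the 6 libraries, as happens where RSEM divides a read between features. GENCODE v29 names 1 to 6 pseudogenes for HK2, ALDOA, PGK1, ENO1, PKM and LDHA, and 0 of these were listed, so reads from them could not be told apart from those of the genes.

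PKM and LDHA close the pathway, PKM by making pyruvate and LDHA by reducing it to lactate. PKM (NCBI gene 5315, chr15:72199029-72231591) was at 4788, 4754 and 4244 CPM in Control and at 6842, 4635 and 5329 CPM in RC48. RC48 replicate 2 lay within the Control range and the other 2 RC48 libraries above it. Its log2 fold change was 0.29 (SE 0.16, 95% interval -0.086 to 0.66, edgeR adjusted p = 0.317), and 0.11 after the correction for GC content (edgeR adjusted p = 0.438). LDHA (NCBI gene 3939, chr11:18394563-18408425) was at 430.1, 429.4 and 405.1 CPM in Control and at 471.0, 430.2 and 460.8 CPM in RC48. The groups of LDHA did not overlap, though the lowest RC48 library, at 430.2 CPM, stood beside the highest Control library, at 430.1 CPM. The log2 fold change of LDHA was 0.11 (SE 0.10, 95% interval -0.14 to 0.35, edgeR adjusted p = 0.515, exact permutation p = 0.1), and 0.26 after the correction for GC content (edgeR adjusted p = 0.218), when the groups overlapped. With the correction and without RC48 replicate 2, LDHA passed the test (log2 fold change 0.37, edgeR adjusted p = 0.0473), as did 2065 genes in all.

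Read over the 10 genes in CPM, the groups of 2 did not overlap, PFKP and LDHA, both higher in RC48. Of all genes 31.5% did not overlap, 17.4% higher and 14.1% lower. After the correction for GC content the groups of 3 did not overlap, PFKP higher and HK2 and PFKFB3 lower, where 33.5% of all genes did not. Both shares were near or below those of all genes. The intervals of the 10 genes bound the change that these libraries allow: the widest upper bounds were 0.80 for PFKP and 0.78 for ALDOA, and the lowest bound was -0.62 for HK2, on the log2 scale.

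**Figure D2:**
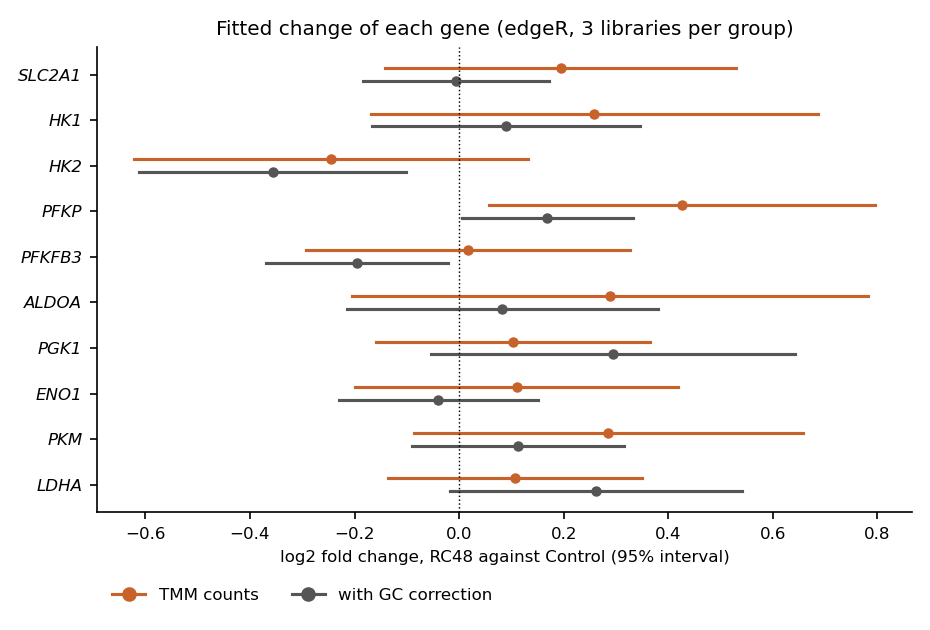
Log2 fold change of RC48 against Control for each gene with its 95% interval, without and with the correction for GC content; the line at 0 marks no difference. Without the correction 9 of 10 points lie above 0, with it 6 do, and no gene reached an adjusted p under 0.05 in either fit.

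The glycolysis genes were next set beside the GC trend of all genes in each RC48 library. Among the 10, ALDOA had a GC content of 54.3% and a log2 ratio of 0.70 in RC48 replicate 1, and HK2, at 51.2%, had 0.041. Across the 10 genes Spearman's rho between GC content and log2 ratio was 0.59 in RC48 replicate 1, 0.091 in RC48 replicate 2 and 0.26 in RC48 replicate 3, as a description of points that share a library. HK2 lay below the median of genes of like GC content in all 3 RC48 libraries. PGK1 and LDHA lay above it in RC48 replicates 1 and 3, in which genes of low GC content were low. How the GC trend arose was not tested.

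**Figure D3:**
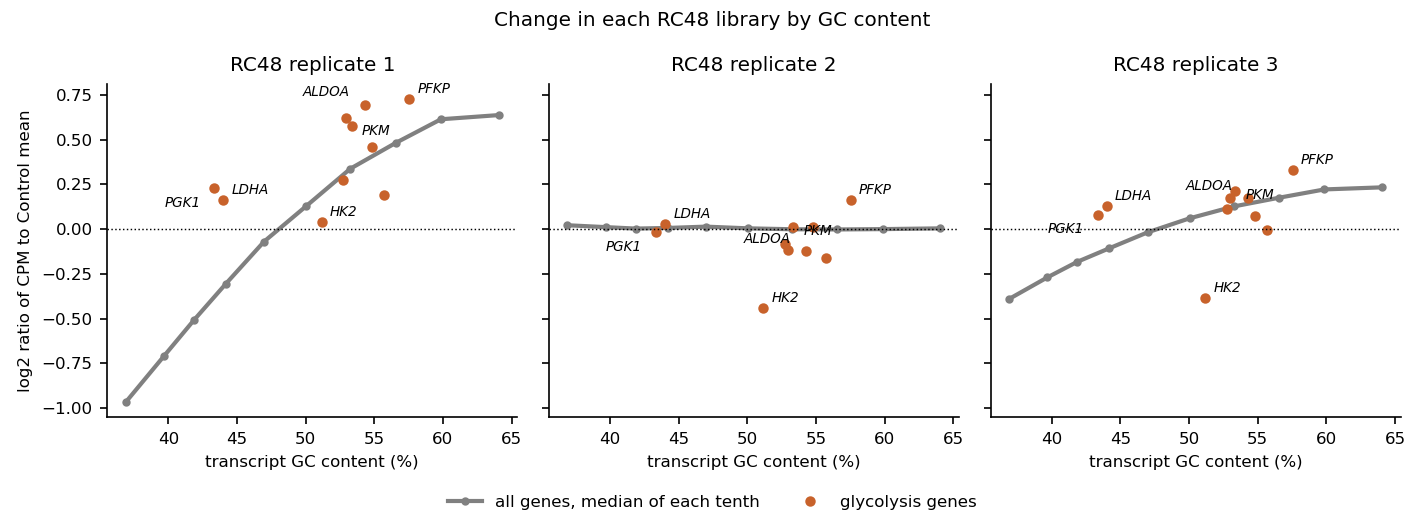
The vertical axis is the log2 ratio of CPM in 1 RC48 library over the Control mean and the horizontal axis the GC content of the transcript in percent, with medians of 10 equal groups of 13000 genes as a grey line and the 10 glycolysis genes as points. The grey line climbs from -0.97 to 0.64 in RC48 replicate 1 and from -0.39 to 0.23 in RC48 replicate 3 and is flat in RC48 replicate 2, and HK2 is under it in all 3 panels.

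Levels of different genes were compared in TPM, a level that accounts for gene length as well as library size. PKM was the most abundant at a mean of 4328 TPM over the 6 libraries, followed by ENO1 (2494), ALDOA (1751), LDHA (387), PGK1 (172.5), HK1 (151.8), SLC2A1 (135.3), PFKP (135.2), HK2 (30.9) and PFKFB3 (18.4). The order did not follow the place in the pathway alone. PKM, ENO1 and ALDOA were the most abundant, PGK1 lay near HK1, SLC2A1 and PFKP, and HK2 and PFKFB3 were the least abundant. Neighbors in this order had ranges that overlapped for PGK1 and HK1, for HK1 and SLC2A1, and for SLC2A1 and PFKP. SLC2A1 was above PFKP in 3 of 6 libraries, so these 2 were not ordered. All other neighbors were separated in every library. The 10 genes together held 8870 to 9302 TPM in Control and 11259, 9179 and 9758 TPM in RC48 replicates 1, 2 and 3, and RC48 replicate 2 was within the Control range.

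Paralogs at the same step were set side by side to ask which gene carried it. SLC2A1 made up 62.0% to 64.1% of the TPM of all listed SLC2A genes, ALDOA 97.3% to 98.4% of aldolase, and ENO1 98.9% to 99.3% of enolase. PFKP was the second of the phosphofructokinases, with 31.4% to 36.1%, behind the liver-type PFKL with 48.3% to 57.3%. LDHA was the minor lactate dehydrogenase, since LDHB, the form that favors the reverse reaction, held 79.5% to 83.8%. Shares that did not overlap between groups are given without a test, since they were picked out after the values were known. Besides ALDOA, HK2 and LDHA, other shares did not overlap either. Those of HK1, PFKFB4 and SLC2A6 were higher in RC48, and those of ALDOC, LDHB, PFKM and SLC2A8 lower. PFKM held 16.7% to 17.7% of phosphofructokinase TPM in Control and 11.3% to 14.3% in RC48. ALDOA held 97.3% to 97.8% of aldolase TPM in Control and 98.1% to 98.4% in RC48. HK2 held 18.0% to 20.9% of hexokinase TPM in Control and 13.8% to 16.1% in RC48, and LDHA held 16.2% to 17.0% of the LDHA and LDHB total in Control and 19.1% to 20.5% in RC48. The ratio of HK2 to HK1 was 0.234, 0.220 and 0.266 in Control and 0.161, 0.192 and 0.163 in RC48. The ratio of LDHA to LDHB was 0.195, 0.194 and 0.205 in Control and 0.257, 0.250 and 0.235 in RC48. In TPM, LDHA itself overlapped, at 379 to 392 in Control and 373 to 403 in RC48. LDHB was lower without overlap, at 1919 to 1957 TPM in Control and 1451 to 1683 TPM in RC48, though in CPM its groups overlapped. Both ratios also stayed apart after the correction for GC content, where, set to a Control mean of 1, the HK2 to HK1 ratio was 0.91 to 1.11 in Control and 0.70 to 0.80 in RC48, and the LDHA to LDHB ratio was 0.98 to 1.03 and 1.24 to 1.42. None of the 4 genes in these ratios passed the test alone.

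**Figure D4:**
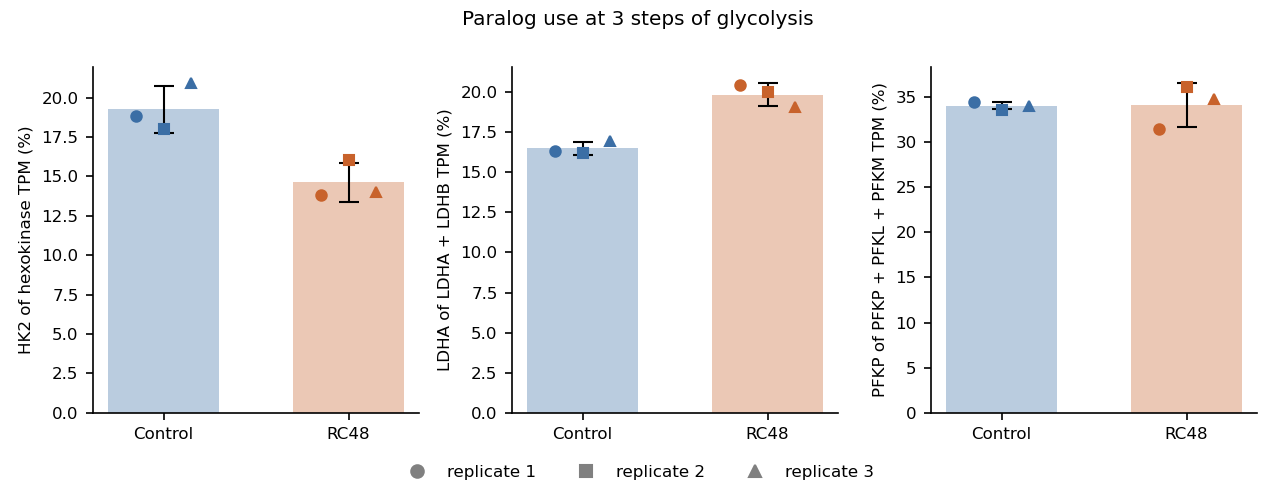
Share of the TPM of each step, in percent, held by HK2, LDHA and PFKP in each library as points, with the group mean as a bar from 0 and the SD as an error line. The RC48 libraries are lower for HK2 and higher for LDHA without overlap, and overlap the Control libraries for PFKP.

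Around the 10 genes, 16 other genes of glycolysis were tested, and 1 passed. BPGM, which makes 2,3-bisphosphoglycerate in a side branch, rose from 57.9, 59.5 and 57.2 CPM in Control to 95.1, 144.6 and 124.1 CPM in RC48. All RC48 libraries of BPGM were above the Control libraries, with a log2 fold change of 1.06 (SE 0.17, edgeR adjusted p = 0.0201), and 1.20 after the correction for GC content (edgeR adjusted p = 1.7e-04). BPGM lost its call without Control replicate 1, 2 or 3 or without RC48 replicate 3. The other 15 genes did not pass, among them PFKL at 0.56 (edgeR adjusted p = 0.253) and LDHB at -0.18 (edgeR adjusted p = 0.347), and the median of the 16 was 0.066, or -0.011 after the correction for GC content. PFKL was at 0.21 (edgeR adjusted p = 0.226), and LDHB at -0.13 (edgeR adjusted p = 0.442), with that correction. Of 10 other glucose transporters and regulators of uptake, 0 passed. The most abundant of them, TXNIP, a brake on glucose uptake, was at 226.0, 222.6 and 227.1 CPM in Control and at 162.8, 192.6 and 183.7 CPM in RC48. The groups of TXNIP did not overlap, with a log2 fold change of -0.33 (SE 0.11, edgeR adjusted p = 0.205), and -0.18 after the correction for GC content (edgeR adjusted p = 0.176). SLC2A6, a lysosomal transporter, came next after SLC2A1 among the SLC2A genes by mean TPM over the 6 libraries, which was how it was picked. That mean includes the RC48 libraries, where it was high. In Control, SLC2A8 stood above SLC2A6, at 28.5 against 22.7 TPM. SLC2A6 was at 28.6, 27.3 and 27.6 CPM in Control and at 70.0, 37.1 and 48.8 CPM in RC48, again without overlap. Its log2 fold change was 0.90 (edgeR adjusted p = 0.106), and it passed after the correction for GC content (log2 fold change 0.55, edgeR adjusted p = 0.0113). That call was lost with the correction without Control replicate 1, Control replicate 2 or RC48 replicate 3 (edgeR adjusted p = 0.0729, 0.078 and 0.0625). Without RC48 replicate 2, when 3726 genes passed, PFKL (edgeR adjusted p = 0.0303), TXNIP (edgeR adjusted p = 0.0494) and SLC2A6 (edgeR adjusted p = 0.0106) passed as well, and SLC2A6 also did without RC48 replicate 1 (edgeR adjusted p = 0.0106).

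The routes that lead off glycolysis and the HIF pathway gave 1 call in all. Among 17 genes of lactate and pyruvate fate, 4 of gluconeogenesis, 7 of the pentose phosphate pathway, and 12 of the hexosamine and glycogen branch, 0 passed in edgeR, and 0 passed after the correction for GC content; their unadjusted p was under 0.05 for 4, 0, 1 and 1 genes, and their medians were -0.18, 0.27, 0.19 and -0.093. With the GC correction these medians were -0.038, -0.057, -0.026 and 0.045, so 3 of the 4 turned sign. Of 8 HIF factors and regulators, 0 passed and 2 had an unadjusted p under 0.05, and with the GC correction 0 and 3. HIF1A, the oxygen-regulated subunit, was at 579.5, 579.5 and 656.9 CPM in Control and at 351.2, 709.2 and 528.9 CPM in RC48. Its RC48 libraries lay on both sides of the Control libraries, with a log2 fold change of -0.19 (edgeR adjusted p = 0.598), and 0.21 after the correction for GC content (edgeR adjusted p = 0.135). With the correction the groups of HIF1A did not overlap, at 496 to 548 CPM in Control and 591 to 603 CPM in RC48. The same held for 33.5% of all genes. Of 15 HIF targets outside glycolysis, ADM, which encodes the vasodilator adrenomedullin, passed, and 6 had an unadjusted p under 0.05, beside 19.1% of all genes. With the GC correction 7 of the 15 did, beside 25.4% of all genes. ADM rose from 16.8, 16.6 and 15.7 CPM to 24.0, 30.3 and 31.3 CPM, a log2 fold change of 0.81 (SE 0.15, edgeR adjusted p = 0.0394). After the correction for GC content ADM did not pass (0.59, edgeR adjusted p = 0.129), and 16 of 23 alternative settings ended its call, among them leaving out any 1 Control library or RC48 replicate 3. The median of the 15 targets was 0.045, and 0.20 after the correction.

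Genes with the pattern most like SLC2A1 and LDHA over the 6 libraries were named by Pearson's r of log2 CPM, among 9892 genes with a mean of at least 10 CPM. For SLC2A1 these were GNB2, SERINC2 and ORMDL2, each at r = 0.997, and 1876 genes reached r = 0.9. For LDHA they were RAB34 (0.999), PTRHD1 (0.998) and VPS25 (0.998), and 1029 genes reached r = 0.9, so a high r set neither gene apart. Among the glycolysis genes themselves, r was -0.29 to 0.61 for the 9 pairs with HK2 and 0.58 to 0.996 for the other 36 pairs.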

How the data were processed

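Total RNA of 6 SW780 libraries, 3 Control and 3 exposed to RC48, was sequenced by the authors. SOAPnuke was used for read filtering, Bowtie2 for mapping and RSEM for counts per gene. The submitters' processing notes name hg38. Versions and the annotation are not given in the sources used here. The deposited expected counts are RSEM estimates without normalization, 11.7% to 15.0% of them not whole. The deposited TPM values were normalized by the authors for length and library size. TPM of RC48 replicate 2 was computed from its counts and the lengths that the other libraries imply. The same procedure on RC48 replicate 3 differed from its deposited TPM by a median absolute log2 of 0.0027 over 12192 genes.

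Libraries were grouped by the labels. Counts were rounded, filtered with filterByExpr, scaled by TMM factors and compared by the quasi-likelihood test of edgeR without covariates, with Benjamini-Hochberg adjustment at 0.05 (R 4.3.3, edgeR 4.0.16). CPM are TMM-normalized. Exact permutation tests were two-sided, on log2 CPM. The correction for GC content used a loess trend (span 0.3) as an edgeR offset. The trend was that of log2 CPM, less the gene's mean over the fitted libraries, on the GC content of the longest GENCODE v29 transcript. GC content was known for 16289 genes, and 16360 gene numbers were in the RefSeq table, from which positions (GRCh38.p14) were taken. Alternatives were DESeq2 1.42.0, limma 3.58.1 on log2(TPM+1) and log2(TPM+0.1), limma's voom with sample weights, edgeR with RLE factors or with no normalization factors, no filter or a minimum of 10 counts per library, the replicate number as a block, and each library left out. The fits that join the GC correction with a left-out library were added after seeing the data. Scripts were tested on simulated data.

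The 10 genes and the other gene lists were chosen with earlier results of these data known. Named besides the 10 were genes of the other lists that passed the test, and the 3 genes most correlated with SLC2A1 and LDHA. Also named was the most abundant gene, by mean TPM over the 6 libraries, of a list in which none passed or of a paralog step. Other genes so named are not used here.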

Additional observations from a re-analysis of the deposited data

How the results depend on the processing

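Of all genes, 288 were called in the main fit, with 89.6% of the calls higher in RC48. DESeq2 called 681 (71.8% higher), the correction for GC content 984 (63.9%), limma on log2(TPM+1) 2894 (28.4%), limma on log2(TPM+0.1) 2829 (27.7%) and voom with sample quality weights 8018 (49.5%). Leaving out 1 library gave 68 to 3726 calls, with 897 without RC48 replicate 1 and 3726 without RC48 replicate 2. With the GC correction as well it gave 311 to 2065, with 1644 without RC48 replicate 1 and 2065 without RC48 replicate 2. The 2 limma fits on TPM used the 5 libraries with deposited TPM, so RC48 replicate 2 was not in them. The voom fit used the counts of all 6 libraries. The median log2 fold change of all genes was -0.11 with log2(TPM+0.1) and 0.016 in the main fit, so TPM-based values are shifted down by that amount. The cause of these differences was not tested.

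Of the 10 glycolysis genes, 0 were called in the main fit and in 18 of 23 alternatives. Voom called 4 (HK1, HK2, PFKP and PKM), where it called 8018 of 13055 genes. Leaving out 1 library gave 0 to 1 call, HK2 without RC48 replicate 1 and PFKP without RC48 replicate 2. With the GC correction it gave 0 to 1 call, HK2 without RC48 replicate 1 (edgeR adjusted p = 0.00826) and LDHA without RC48 replicate 2 (edgeR adjusted p = 0.0473). The number of the 10 above 0 was 9 in the main fit and 4 to 9 in the alternatives.

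HK2 stayed below 0 (log2 fold change -0.46 to -0.16), and PFKP (0.15 to 0.54), PGK1 (0.027 to 0.43), PKM (0.051 to 0.40) and LDHA (0.0026 to 0.37) stayed above 0, in all 23 alternatives. The other members turned sign in at least 1. PFKFB3 was -0.0071 with DESeq2, -0.19 with the GC correction, -0.050 with library sizes alone, -0.020 with log2(TPM+0.1), -0.019 with log2(TPM+1), -0.014 with voom, -0.20 with the GC correction and replicate block, -0.085 to 0.096 with a library left out (-0.085 without RC48 replicate 1), and -0.21 to -0.16 with the GC correction and a library left out (-0.19, -0.21, -0.19, -0.16, -0.21 and -0.21). ENO1 was -0.040 with the GC correction, -0.038 with the block as well, and with a library left out -0.017, -0.0045 and -0.10 for the Control replicates and -0.042, -0.017 and -0.059 for the RC48 replicates. SLC2A1 was -0.0061 with the GC correction, -0.0066 with the block as well, and -0.032, -0.031 and -0.016 without Control replicate 3, RC48 replicate 1 and RC48 replicate 2. ALDOA was -0.0075 and -0.042 with the GC correction without Control replicate 3 and RC48 replicate 1, where HK1 was -0.029 without RC48 replicate 1. HIF1A was 0.21 with the GC correction and with the block as well, 0.025 without RC48 replicate 1, and 0.18, 0.19 and 0.26 without each Control replicate and 0.21, 0.22 and 0.21 without each RC48 replicate under the GC correction.

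The titles share replicate numbers, but same-numbered libraries did not deviate together (correlation of deviations 0.0020, -0.13 and 0.0048). With the replicate number as a block, edgeR called 331 genes and 0 of the 10, and with the GC correction 683 genes and 0 of the 10. ADM lost its call under both. The lowest count of a library among the 10 genes was 658, for PFKFB3, so sampling noise was largest for PFKFB3. The SE of the log2 fold change did not follow the counts alone, at 0.13 for PFKFB3, 0.21 for ALDOA and 0.10 for LDHA.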

Other observations

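After the correction for GC content, further HIF targets outside glycolysis passed the test, and both were named after their values were seen. P4HA2, a collagen prolyl hydroxylase, was at 40.8, 41.5 and 36.7 CPM in Control and at 79.6, 53.7 and 64.7 CPM in RC48. All RC48 libraries of P4HA2 were above the Control libraries, with a log2 fold change of 0.69 (edgeR adjusted p = 0.0184) with the correction and 0.73 (edgeR adjusted p = 0.0805) without it. CA9, a carbonic anhydrase at the cell surface and a classical mark of HIF activity, was low, at 2.08, 2.38 and 1.35 CPM in Control and 1.34, 0.742 and 1.06 CPM in RC48. Its log2 fold change was -1.19 (edgeR adjusted p = 0.0289) with the correction and -0.89 (edgeR adjusted p = 0.211) without it. With the correction, both calls were lost without Control replicate 1, Control replicate 2 or RC48 replicate 3 (edgeR adjusted p = 0.0749 to 0.083 for P4HA2 and 0.101 to 0.134 for CA9), and that of P4HA2 also without Control replicate 3 (edgeR adjusted p = 0.0952). Among the glucose transporters, SLC2A8 passed with the correction, lower in RC48, with a log2 fold change of -0.52 (edgeR adjusted p = 0.0391), against -0.22 (edgeR adjusted p = 0.358) without it. SLC2A8, named after its values were seen, lost this call with any 1 Control library or RC48 replicate 3 left out (edgeR adjusted p = 0.0947 to 0.163).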
